A study of Mus musculus with 4 samples.

Results

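Shared NR1D1 peaks at the ends of protein-coding genes were the NR1D1 peaks of the PBS library whose summit lay within 1 kb of either end of a RefSeq protein-coding gene and whose interval overlapped a peak of the vasostatin-2 library by at least 1 bp. There were 1175 of them (95% Poisson interval 1109 to 1244), 15.9% of the 7377 PBS peaks and 44.7% of the 2628 PBS peaks that overlapped a vasostatin-2 peak. The PBS interval was the unit, and its members were chosen by measured values, namely the presence and position of a peak in both lists. What follows is therefore a description of these peaks, with no test.

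The peaks came from CUT&Tag, in which an antibody brings a transposase to chromatin and the DNA it releases around the bound protein is sequenced. Both NR1D1 libraries were made from wild-type primary vascular smooth muscle cells of mouse aorta, kept for 24 h with PBS or with vasostatin-2, a chromogranin A peptide, and both carry the same batch label. The labels also name 1 IgG library per treatment, which was not used. No replicate error exists for single libraries, so all intervals below cover counting error only and no value tests an effect of vasostatin-2. The sources used here do not say how many animals or cultures were used, and nothing in a peak list checks the cell type.

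NR1D1, also called REV-ERB alpha, is a nuclear receptor that represses transcription. It lacks the helix through which other nuclear receptors take up coactivators, and it recruits the corepressor NCoR with the histone deacetylase HDAC3. It binds as a monomer to the half-site AGGTCA behind an A/T-rich stretch, or as a pair of molecules to a doubled site called RevDR2, in which a second half-site follows the first after 2 bases. In the circadian clock it represses Arntl, which encodes BMAL1, and is itself driven through E-boxes (CACGTG) by BMAL1 and CLOCK. It is also known to be brought to genes through other DNA-bound factors, without a site of its own.

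RefSeq promoter windows (GRCm38.p6, the assembly of mm10), each running from 250 bp before to 50 bp after a listed start, show the letters of the promoters near these peaks. They are not the sequence of the peaks, and 506 of the 953 windows of members held the summit. The first set holds the genes of REV-ERB alpha and beta and a clock gene with repeated E-boxes, with AGGTCA and CACGTG in capitals. All sequences are written 5′ to 3′ on the gene's strand, and positions count from 0 at the listed start. The windows are chr11:98775328-98775627 (- strand) for Nr1d1, chr14:18239057-18239356 (- strand) for Nr1d2 and chr3:95882179-95882478 (- strand) for Ciart.
Nr1d1: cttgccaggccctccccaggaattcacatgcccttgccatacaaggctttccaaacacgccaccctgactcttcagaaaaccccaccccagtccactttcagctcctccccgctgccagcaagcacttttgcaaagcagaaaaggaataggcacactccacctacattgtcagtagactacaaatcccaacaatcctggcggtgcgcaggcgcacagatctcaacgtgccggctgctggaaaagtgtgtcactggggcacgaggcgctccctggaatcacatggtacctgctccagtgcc
Nr1d2: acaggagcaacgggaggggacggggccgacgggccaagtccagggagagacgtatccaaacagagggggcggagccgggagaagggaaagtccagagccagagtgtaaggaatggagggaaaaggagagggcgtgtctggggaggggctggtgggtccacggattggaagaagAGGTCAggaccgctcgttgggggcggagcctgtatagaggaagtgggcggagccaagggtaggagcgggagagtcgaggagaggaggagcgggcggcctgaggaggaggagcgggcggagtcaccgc
Ciart: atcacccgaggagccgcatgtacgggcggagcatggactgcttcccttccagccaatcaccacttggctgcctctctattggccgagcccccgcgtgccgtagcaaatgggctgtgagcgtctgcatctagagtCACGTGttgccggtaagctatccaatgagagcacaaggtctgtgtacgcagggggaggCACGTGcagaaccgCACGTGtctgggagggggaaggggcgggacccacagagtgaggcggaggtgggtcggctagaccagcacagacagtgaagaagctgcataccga
The Nr1d1 window held neither AGGTCA nor CACGTG in these exact letters, and its PBS summit lay at -30. A REV-ERB site with changed letters would not be marked here. The Nr1d2 window held AGGTCA at -77, beside a summit at -72. The window of Ciart, a clock-associated repressor, held CACGTG at -116, -58 and -44, and its summit lay at 36.

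Leo1 and Tmx4 are shown because their windows alone, among the 953 windows with a listed start within 1 kb of a member's summit, contained a REV-ERB monomer motif, searched as ANTAGGTCA or ANTGGGTCA. Leo1 encodes a subunit of the PAF1 complex, which travels with RNA polymerase II, and Tmx4 a thioredoxin-like membrane protein. The windows are chr9:75441274-75441573 (+ strand) and chr2:134644072-134644371 (- strand), with the motif in capitals.
Leo1: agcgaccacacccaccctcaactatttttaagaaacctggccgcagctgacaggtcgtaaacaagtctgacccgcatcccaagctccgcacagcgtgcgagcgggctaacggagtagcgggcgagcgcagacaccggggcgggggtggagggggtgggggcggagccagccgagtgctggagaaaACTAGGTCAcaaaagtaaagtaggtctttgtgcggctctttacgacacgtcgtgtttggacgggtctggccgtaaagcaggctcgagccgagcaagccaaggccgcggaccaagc
Tmx4: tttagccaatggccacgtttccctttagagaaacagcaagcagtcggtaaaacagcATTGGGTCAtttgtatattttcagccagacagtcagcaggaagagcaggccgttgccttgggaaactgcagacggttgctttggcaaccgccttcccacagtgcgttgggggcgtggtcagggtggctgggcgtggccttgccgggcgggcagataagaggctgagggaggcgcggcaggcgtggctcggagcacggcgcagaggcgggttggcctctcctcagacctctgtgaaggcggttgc
The Leo1 motif began at -65 and the summit lay at 1, with 13 fragments at the PBS summit and 8 at the vasostatin-2 summit. The Tmx4 motif began at -194 and the summit lay at 28, with 9 and 6 fragments, so that this motif was in the window of the summit but away from it. It was of the form without AGGTCA. Its first letters, ATTGG, were also a match to CCAAT on the opposite strand. In PBS the Leo1 peak was at the median of all members and the Tmx4 peak at the lower quartile.

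The third set shows letters found in many member windows, CCAAT and the GC box GGGCGG, in capitals on either strand. Ap2a1 (a subunit of the clathrin adaptor AP-2) and Mbd3 (a subunit of the NuRD chromatin complex) had peaks of many PBS fragments (54 and 44) with the summit in the window. They are examples that hold both motifs. Rras (52 PBS fragments) and Eif5a (48) lay between them, also with the summit in the window. The Rras window held neither motif, and the Eif5a window held 1 GC box and no CCAAT. Jun (an AP-1 subunit) and Uvrag (an autophagy and endosome protein) had the lowest ratios of vasostatin-2 to PBS signal. The windows are chr7:44929441-44929740 (- strand), chr10:80399482-80399781 (- strand), chr4:95052173-95052472 (- strand) and chr7:99141095-99141394 (- strand).
Ap2a1: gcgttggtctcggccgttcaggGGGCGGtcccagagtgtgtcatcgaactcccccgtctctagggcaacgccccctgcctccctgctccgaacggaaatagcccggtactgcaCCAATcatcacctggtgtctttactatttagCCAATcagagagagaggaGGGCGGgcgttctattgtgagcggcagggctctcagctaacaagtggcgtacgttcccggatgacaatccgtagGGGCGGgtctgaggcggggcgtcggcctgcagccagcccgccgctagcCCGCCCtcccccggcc
Mbd3: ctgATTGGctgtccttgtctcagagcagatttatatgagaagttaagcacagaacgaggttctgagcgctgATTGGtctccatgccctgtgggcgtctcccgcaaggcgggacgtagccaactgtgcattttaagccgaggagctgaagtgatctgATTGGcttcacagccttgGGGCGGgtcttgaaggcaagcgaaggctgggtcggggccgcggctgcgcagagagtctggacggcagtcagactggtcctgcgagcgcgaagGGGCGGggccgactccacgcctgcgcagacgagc
Jun: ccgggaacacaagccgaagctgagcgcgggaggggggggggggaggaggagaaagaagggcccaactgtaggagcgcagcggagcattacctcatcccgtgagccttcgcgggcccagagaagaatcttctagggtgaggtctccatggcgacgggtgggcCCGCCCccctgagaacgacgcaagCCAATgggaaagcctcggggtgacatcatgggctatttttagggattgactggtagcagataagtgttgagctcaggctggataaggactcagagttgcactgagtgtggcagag
Uvrag: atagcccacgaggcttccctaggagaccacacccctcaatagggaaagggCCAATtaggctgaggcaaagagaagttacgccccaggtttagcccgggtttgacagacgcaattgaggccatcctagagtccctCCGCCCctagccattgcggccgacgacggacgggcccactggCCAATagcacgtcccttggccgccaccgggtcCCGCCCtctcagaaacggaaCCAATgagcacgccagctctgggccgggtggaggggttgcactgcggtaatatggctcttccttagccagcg
Mbd3 held CCAAT at -247, -179 and -94, each on the opposite strand (ATTGG), around a summit at -165. Uvrag held CCAAT at -200, -74 and -22, and its summit lay at -217. Ap2a1 held 2 CCAAT and 4 GC boxes, and Jun 1 of each.

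Most shared gene-end peaks sat at gene starts. The nearest gene end was a start for 954 peaks, the other end for 35, and of unknown strand for 186, so that 96.5% of those with a known strand (95% Wilson interval 95.1 to 97.4) lay at a start. The share was 94.1% (92.7 to 95.3) for the 1470 PBS gene-end peaks with no vasostatin-2 partner and 88.1% (85.1 to 90.6) for the 672 vasostatin-2 gene-end peaks with no PBS partner. The median distance from summit to the nearest gene end was 164 bp (quartiles 74.5 and 289.5), beside 173.5 bp where the peak was in PBS alone and 242.5 bp where it was in vasostatin-2 alone. All of these distances are bounded at 1 kb by the rule.

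Relative to the start, the summits spread over both sides with a slight lean upstream. A start of known strand lay within 1 kb of 976 summits, of which 535 (54.8%, 51.7 to 57.9) were upstream and 441 at or downstream of it. The median position was -27 bp, with quartiles at -185 and 134.2 bp. Summits within 100 bp of a listed start made up 31.7%, and those within 300 bp 77.5%. Between -250 and -101 bp lay 212 summits (21.7%), and between 100 and 249 bp 157 (16.1%).

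**Figure D1:**
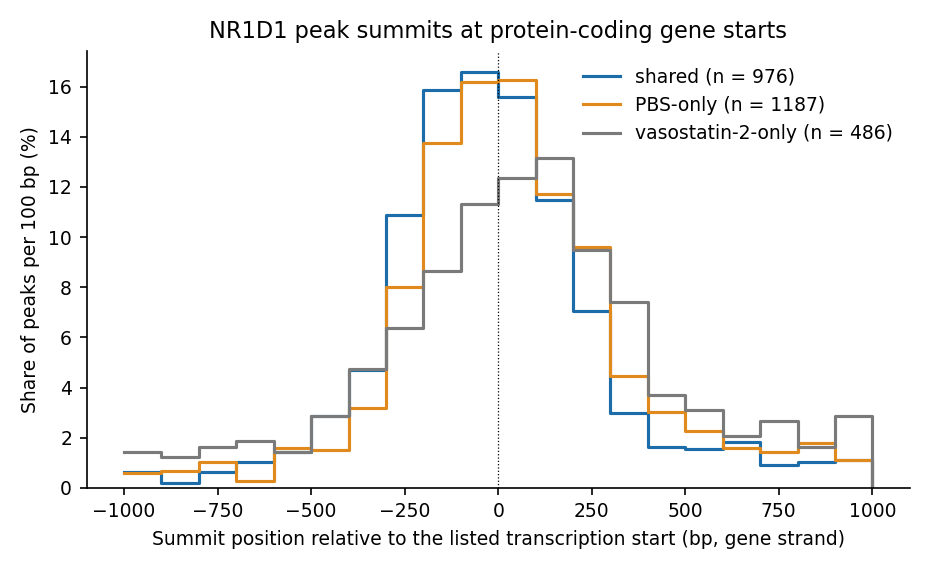
Share of peaks (%) per 100 bp of summit position relative to the listed start, in bp along the gene's strand, for shared gene-end peaks (976), PBS-only (1187) and vasostatin-2-only peaks (486) with a start of known strand within 1 kb. Shared summits lie around the start with a median of -27 bp, and the vasostatin-2-only curve is flatter.

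Many of these summits had more than 1 gene beside them. Within 1 kb of the summit lay the end of 1 protein-coding gene at 895 peaks, of 2 genes at 276 and of 3 or more at 4, together 1452 genes. Starts on both strands lay within 1 kb of 166 summits (14.1%, 12.3 to 16.2), beside 11.9% of PBS-only gene-end peaks and 8.48% of those in vasostatin-2 alone. At 115 of the 166 the genes pointed away from each other, and 41 summits lay between such starts. The peak at Dazap1 (an RNA-binding protein) was also within 1 kb of Gamt, that at Dbp (a D-box clock output factor) of Car11, and that at Mylpf (a fast-muscle myosin light chain) of Tbc1d10b. At such peaks the data do not tell to which gene the signal belongs. An end of a noncoding gene lay within 1 kb of 181 members (15.4%), and 600 summits (51.1%) lay inside a protein-coding gene.

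The 35 peaks nearest to the other end of a gene were of several kinds. At 6 of them another start lay within 1 kb, and 27 had neither a start nor the end of a noncoding gene there. The largest peak of all members, at the distal end of Wls (chr3:159939404-159939685), was one of the 35. Wls encodes the carrier that takes Wnt proteins to the cell surface. Its summit lay 813 bp from that gene end, with 208 fragments in PBS and 150 in the vasostatin-2 library, on an interval of 282 bp, which was narrower than the median of 441 bp.

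Nearly all members paired with 1 vasostatin-2 peak. There were 1175 distinct partners, and 9 members overlapped more than 1. The summits of the 2 libraries lay a median of 81 bp apart, within 100 bp at 57.5% and within 200 bp at 82.3% of members. The overlap had a median of 286 bp. The smallest overlaps that met the rule were 6 bp at Mpp2, a membrane scaffold protein, and 9 bp at Ankrd35 and Cacul1. The summits just inside the 1 kb limit were those at Mvd (996 bp, a mevalonate pathway enzyme), Mpp2 (984 bp) and Tsku (984 bp), with 8 or 9 PBS fragments. Just outside it lay shared peaks at Slc36a1 (1002 bp) and Zswim8 (1014 bp), with 9 and 10 PBS fragments, and at Socs3 (1045 bp, a cytokine signalling inhibitor), with 28 and 18 fragments in PBS and vasostatin-2.

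The peaks rested on few fragments. At the summit the PBS library had a median of 13 fragments (quartiles 9 and 19, range 4 to 208) and the vasostatin-2 library 10 (quartiles 7 and 13, range 4 to 150). The authors' fold enrichment had a median of 6.87 in PBS and 5.78 in vasostatin-2 (each within its own list), and the intervals were 441 and 344 bp wide at the median. PBS-only gene-end peaks were smaller, with a median of 8 fragments and 307.5 bp, as were vasostatin-2-only ones, with 6 fragments and 245.5 bp. Shared peaks inside genes had a median of 11 fragments and 364.5 bp.

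Whether a gene-end peak was shared went with its fragments, which the rule therefore also selects on. Of PBS gene-end peaks with 4 to 5 fragments 11.8% had a vasostatin-2 partner, against 45.6% at 9 to 12, 66.6% at 13 to 20 and 95.8% at 21 to 49, and all 18 peaks of 50 or more were shared. PBS peaks away from gene ends gave 7.27% at 4 to 5, 45.2% at 9 to 12, 66.7% at 13 to 20 and 87.3% at 21 to 49 fragments. At 6 to 8 fragments the share was 21.4% (18.7 to 24.4) at gene ends and 24.0% (22.0 to 26.15) away from them. The shares were thus close in the middle classes. They were lower away from gene ends at 4 to 5 fragments, where the intervals overlapped (8.37 to 16.5 and 6.04 to 8.74). They were also lower there at 21 to 49 (92.4 to 97.7 and 81.8 to 91.3). Seen from the vasostatin-2 list, the 2 locations stood apart at like fragment numbers. Of vasostatin-2 gene-end peaks with 4 to 5 fragments 27.1% (22.1 to 32.9) had a PBS partner, against 2.67% (2.06 to 3.45) away from gene ends, and at 9 to 12 fragments 76.2% (72.4 to 79.7) against 36.6% (34.1 to 39.2).

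At nearly every well-covered member the vasostatin-2 library carried less signal than the PBS library. Of all 1175 members, 933 had more fragments in PBS, 81 had equal numbers and 161 had more in vasostatin-2, although the vasostatin-2 library was the deeper one by a factor of 1.32. The depth was worked out from the caller's background and is not a read total. In sums, the members held 18680 PBS and 13226 vasostatin-2 fragments. After division by the depth factor the pooled log2 ratio of vasostatin-2 over PBS was -0.90 (95% counting interval -0.93 to -0.86).

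Ratios of single peaks were compared at members with at least 30 fragments in the 2 libraries together and under 100 in PBS. At these 349 peaks the median log2 ratio was -1.06 (order-statistic 95% interval -1.10 to -1.01), a vasostatin-2 signal at 0.479 of the PBS signal per unit depth. The ratio was below 0 at 342 of them (98.0%), against 88.4% of all 674 shared peaks that met the same limits, and at 299 (85.7%) it was lower by at least 1.5-fold, against 69.0%. None was higher by at least 1.5-fold, against 2.82% of all 674. The 325 shared peaks away from protein-coding gene ends had a median of -0.62 (-0.75 to -0.52), with 78.2% below 0 and 51.1% lower by at least 1.5-fold. Members must hold a called peak in both libraries, so larger losses and gains are outside this set, and without scaling for depth the median was -0.66.

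**Figure D2:**
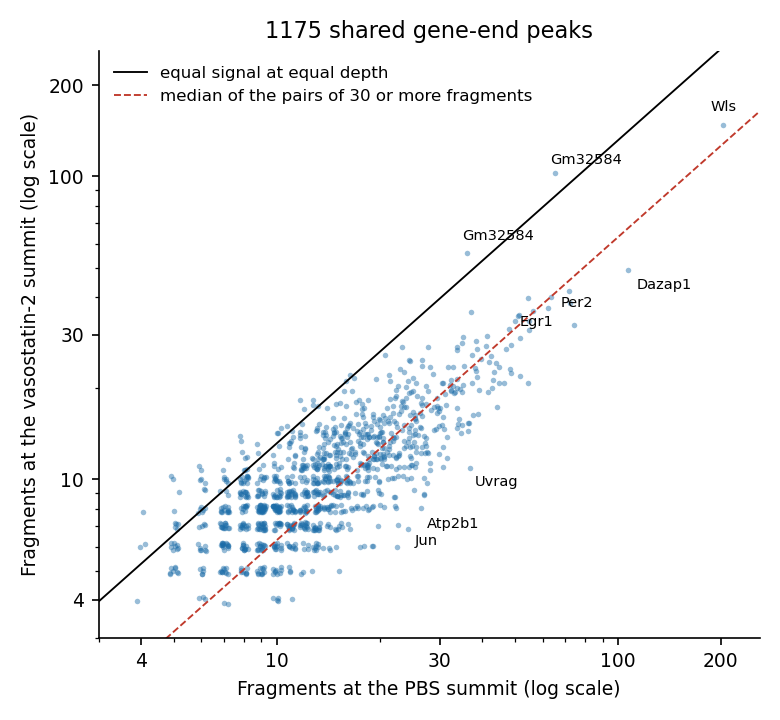
Fragments at the vasostatin-2 summit against fragments at the PBS summit for the 1175 shared gene-end peaks, both axes logarithmic, 1 point per peak with a small random shift so that equal values can be seen. The solid line marks equal signal after scaling for a depth factor of 1.32 and the dashed line the median of the pairs with at least 30 fragments (log2 ratio -1.06). Most points lie below the solid line, and both peaks of Gm32584 lie just above it.

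The gene-end ratios had quartiles of -1.31 and -0.76, against -1.06 and -0.07 away from gene ends. The counting interval of a single peak left out the median of its own class at 11 of 349 gene-end pairs (3.15%) and at 50 of 325 pairs elsewhere (15.4%). Members must have a called peak in both libraries, which trims the extremes, so these shares are a description of the spread. Summits upstream of the start and summits at or downstream of it both had a median of -1.05 (193 and 103 pairs). Peaks whose window was rich in CpG had a median of -1.06 (246 pairs) and the others -0.93 (43 pairs, -1.16 to -0.74). By fragments in both libraries together, the median was -1.02 at 30 to 39, -1.10 at 40 to 59 and -1.16 at 60 or more.

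**Figure D3:**
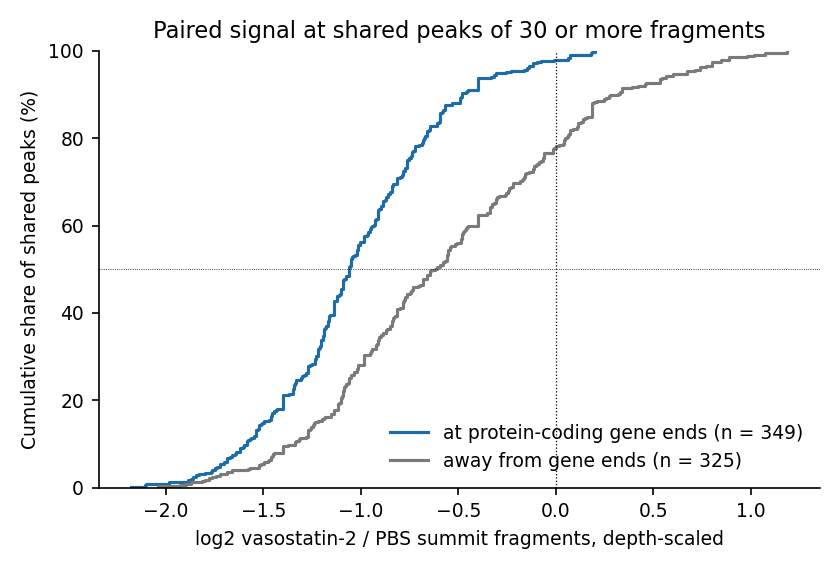
Cumulative share (%) of shared peaks by log2 ratio of vasostatin-2 to PBS summit fragments after scaling for depth, for the 349 well-covered peaks at protein-coding gene ends and the 325 elsewhere. The gene-end curve crosses 50% at -1.06 and passes 0 at 98.0%, and the other curve crosses 50% at -0.62 and passes 0 at 78.2%.

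The peaks with the most PBS fragments showed the same order of the libraries, with 1 exception. Dazap1 (chr10:80260988-80261791), next to Wls the only member of 100 or more PBS fragments, had 107 in PBS and 50 in vasostatin-2, a log2 ratio of -1.50. Csnk1g2, a casein kinase, had 73 and 39, Mylpf 72 and 41, and Zbtb20, a zinc finger repressor, 72 and 33. Ubxn6, an adaptor of the ATPase p97, had 63 and 37, and Ap2a1 54 and 21. Izumo4, Tmem259, LOC114841036 and Garnl3 had between 53 and 56 fragments in PBS and between 30 and 40 in vasostatin-2. The exception was Gm32584, a predicted gene, with 67 in PBS and 100 in vasostatin-2 on an interval of 287 bp at its distal end (chr5:36630470-36630756).

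Among the 349 pairs with enough fragments, the lowest ratios were found at Jun, with 24 PBS and 7 vasostatin-2 fragments (log2 ratio -2.18, counting interval -3.64 to -0.92), and at Uvrag, with 36 and 11 (-2.11, -3.23 to -1.10). Atp2b1, the plasma membrane calcium pump, had 26 and 8 (-2.10). Hnrnpa1 and Raly, which encode RNA-binding proteins of the hnRNP family, both had 27 and 9 (-1.98), and Zkscan14, a zinc finger gene, had 28 and 10 (-1.88). Of these 6, the interval of Uvrag alone left out the class median of -1.06.

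Among the highest ratios of these pairs were those at 2 peaks of Gm32584, with 37 and 56 fragments at the second (0.20, -0.43 to 0.84), at Hap1 with 12 and 18 (0.19), and at Rpl13a and Gm51572, both with 13 in PBS and 18 in vasostatin-2 (0.07). Hap1 binds huntingtin, and Rpl13a is a ribosomal protein. The counting intervals of these peaks held 0 and left out the class median. Named after their values were seen, further pairs whose interval left it out included Arhgap17 (21 and 25), Plekhh3 (16 and 22) and 1 of the 2 Sfi1 peaks (23 and 28). At the other Sfi1 peak the fragments were 41 and 25. The interval left out the class median at 11 of the 349 pairs (3.15%), with a ratio above it at 10 of these. With 1 library per treatment no peak was tested, so no single peak is called different. Gm32584, Sfi1, Sertad1 and Setd5 were the genes nearest to 2 members each.

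Clock genes were among the genes with these peaks. Of the 21887 protein-coding genes 6.63% had a shared gene-end peak, and of the 24 genes of the core clock and its output 8 had one (33.3%, 17.97 to 53.3). Among the negative arm, Per2 (chr1:91458054-91459016) had 63 fragments in PBS and 39 in vasostatin-2, Per1 37 and 35, and Cry2 14 and 12. Per1 and Per2 encode the period proteins and Cry2 a cryptochrome, which together inhibit CLOCK and BMAL1. The Per1 ratio was -0.48 (-1.19 to 0.23) and the Per2 ratio -1.09 (-1.71 to -0.49), and the intervals overlapped.

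The REV-ERB genes and the output factors followed. Nr1d1 (chr11:98774910-98775726), the gene of the mapped receptor, had 34 fragments in PBS and 20 in vasostatin-2 (-1.16, -2.04 to -0.33), and Nr1d2, that of REV-ERB beta, 22 and 15. Dbp had 31 and 21. Bhlhe40 (DEC1), a repressor that competes at E-boxes, had 18 and 17, and Ciart had 12 and 6. Vasostatin-2 had fewer fragments than PBS at all 8 clock genes, by 1 fragment at Bhlhe40, as it did at 933 of all 1175 members. Pooled over the 8 peaks the log2 ratio was -0.88 (-1.18 to -0.59), near the -0.90 of all members. Arntl, which NR1D1 is known to repress, had no peak with its summit within 1 kb of an end in either list, and neither did Chga, the gene of chromogranin A.

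In the list of AP-1 and immediate early genes 7 of 18 had a member (38.9%, 20.3 to 61.4), an interval that overlapped that of the clock genes. Immediate early genes respond first to growth factors and stress. Egr1 had 48 fragments in PBS and 31 in vasostatin-2, Jund 30 and 15, Fosl2 25 and 20, and Jun 24 and 7. Dusp1, a phosphatase of MAP kinases, had 19 and 16, Atf3 15 and 9, and Fos 14 and 8. All 7 had fewer fragments in vasostatin-2, as did 933 of all 1175 members, and the pooled ratio was -1.12 (-1.48 to -0.77), an interval that held the -0.90 of all members. The AP-1 motif TGANTCA itself was in 2.94% of member windows, against 7.03% of all, and in 2.70% of CpG-rich member windows against 3.18% of all CpG-rich ones.

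In a list of NCoR, HDAC3 and other corepressor genes, Hdac3, the deacetylase that NCoR carries, had 9 fragments in PBS and 5 in vasostatin-2, Hdac2 13 and 8, and Hdac1 11 and 5. Hdac1 and Hdac2 are deacetylases of other corepressor complexes. These were the 3 genes of that list of 12 with a shared gene-end peak (Wilson interval of the share 8.89 to 53.2%, beside 6.63% of all genes). Of 43 other nuclear receptors 5 had one. Esrra, a receptor of energy metabolism, had 24 and 17, Nr2c2 16 and 8 and Nr4a3 14 and 10. Of 26 Kruppel-like and Sp factors 5 had one, led by Klf16 (48 and 27), Sp1 (34 and 20) and Klf10 (25 and 14).

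Of 22 contractile smooth muscle genes 2 had a shared gene-end peak (9.09%, 2.53 to 27.8, which holds the 6.63% of all genes). They were Vcl (vinculin), with 24 PBS and 10 vasostatin-2 fragments, and Mrtfa, a coactivator of serum response factor, with 9 and 8. Acta2 and Myh11, the actin and myosin that define the contractile state, had no peak within 1 kb of an end in either list. Of 28 genes of matrix and the synthetic state 3 had one (10.7%, 3.71 to 27.2). These were Klf4 (10 and 11), Fn1 (7 and 7) and Vim (7 and 7), all of few fragments. Collagens gave 1 of 44 (Col23a1, nearest to Phykpl). The list of ion channels and calcium handling of vascular muscle gave 1 of 27 (the calcium pump Atp2b1). Of 39 integrin and adhesion genes 4 had one, among them Lims1 (29 and 22) and Ilk (26 and 16), partners in one adhesion complex.

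In the list of inflammation and NF-kB 4 of 24 genes had one (16.7%, 6.68 to 35.9, beside 6.63% of all genes), with 56 PBS and 33 vasostatin-2 fragments at Relb, a subunit of the noncanonical pathway, 34 and 15 at the inhibitor Nfkbib, and 10 and 9 at Rela. The chemokine and adhesion genes of that list had none. In the list of TGF-beta, SMAD and Notch 3 of 22 did, namely the inhibitors Smad6 (25 and 13) and Ski (20 and 13), and Ccn2 (11 and 7). For oxidative stress it was 3 of 20, with Nfe2l2 (NRF2, 20 and 9), its target Nqo1 (14 and 9) and Txn1 (7 and 6). Of 24 lipid and glucose genes, Fasn (14 and 11) and Scap (10 and 8) had one.

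Genes for making and handling proteins were counted next, beside the 6.63% of all protein-coding genes. Of 123 splicing factors 24 had a shared gene-end peak (19.5%, 13.5 to 27.4), of 101 chaperones 22 (21.8%, 14.8 to 30.8) and of 105 translation factors and tRNA synthetases 18 (17.1%, 11.1 to 25.5). Examples are Hnrnpul2 (38 fragments in PBS and 28 in vasostatin-2), Srsf2 (25 and 10), P4hb (26 and 13), Hspa8 (25 and 13), Eif5a (48 and 22) and Eif4ebp2 (32 and 21). For structural subunits it was 8 of 84 cytosolic ribosomal proteins (9.52%, 4.91 to 17.7) and 8 of 78 mitochondrial ones (10.3%, 5.29 to 18.95). Of 82 respiratory chain subunits 7 had one (8.54%, 4.20 to 16.6), and of 49 proteasome subunits 4 (8.16%, 3.22 to 19.2). These shares were lower, but their intervals overlapped those of the splicing, chaperone and translation lists and held the 6.63% of all genes.

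Vesicle traffic genes had a member at 31 of 212 (14.6%), with Rab40c (47 and 23) and Rab5b (35 and 29). Ubiquitin ligases and deubiquitinases had one at 35 of 338 (10.4%, 7.54 to 14.1), with Usp5 (49 and 34) and Rnf5 (43 and 22). Zfp and Zbtb zinc finger genes had one at 38 of 434 (8.76%, 6.45 to 11.8), with Zfp438 (35 and 24). Autophagy genes had 6 of 24, with Wipi1 (25 and 22) and Tfe3 (22 and 16), and cell cycle regulators 4 of 30, with Cdkn2d (25 and 17) and Cdk4 (15 and 18). Cdk4 was one of the few named peaks with more fragments in vasostatin-2. Of 104 DNA repair genes 9 had a member (8.65%, 4.62 to 15.6), with Msh3 (25 and 24) and Brca1 (28 and 11), whose peak was nearest to Nbr1. The intervals of the zinc finger, cell cycle and DNA repair lists held the 6.63% of all genes.

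None of 39 Hox cluster genes had a shared gene-end peak. Among lists of genes for other tissues, none of 1463 olfactory and vomeronasal receptors had one (Wilson upper limit 0.262%). Neither did any of 16 hepatocyte, 14 leukocyte and 14 fibroblast markers, and 1 of 108 keratin genes (Krt80) did. Of 14 endothelial markers Nos3 had one, but the nearest gene end was that of Atg9b. Apart from the receptors of smell and the keratins, the intervals of these lists held the 6.63% of all genes. In all, 294 genes with a shared gene-end peak were in at least 1 of the 40 lists and 1158 were in none.

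**Figure D4:**
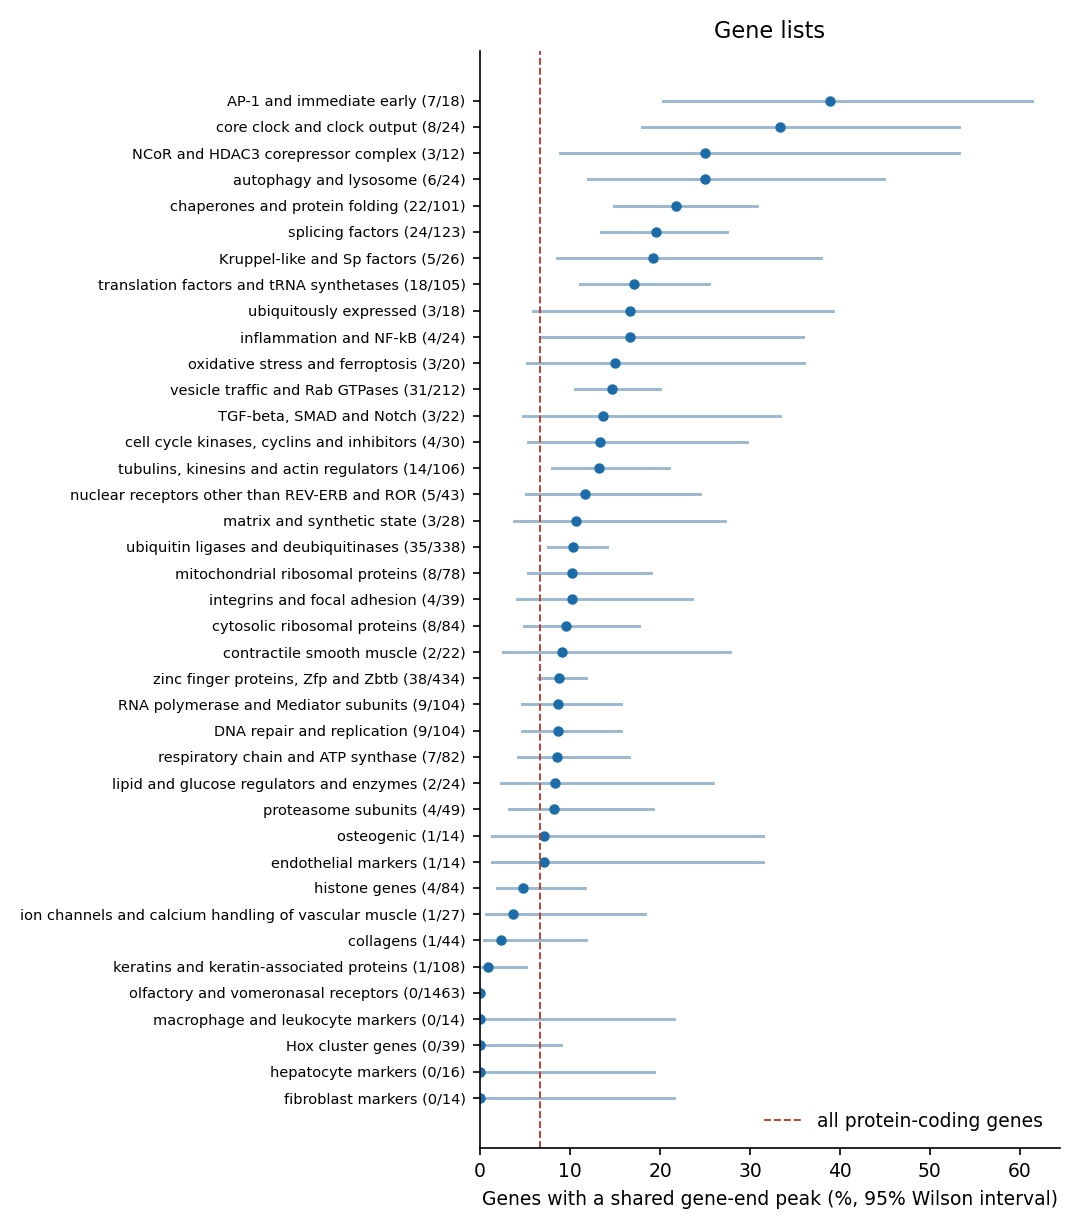
Share (%) of each gene list of 12 or more genes with a shared gene-end peak, with 95% Wilson intervals and the number of genes in parentheses. The dashed line marks the 6.63% of all protein-coding genes. AP-1 and immediate early genes (38.9%) and clock genes (33.3%) are at the top, and the receptor families of smell and the Hox genes are at 0.

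The ratios of the lists differed little. Of the 17 lists with at least 5 members all had a counting interval that held the -0.90 of all members. AP-1 and immediate early genes were lowest (-1.12) and cytosolic ribosomal proteins highest (-0.62, -1.04 to -0.20). Splicing factors had -1.01 (-1.26 to -0.77), translation factors -1.08 (-1.34 to -0.81), chaperones -0.89 (-1.15 to -0.64) and vesicle genes -0.95 (-1.16 to -0.75). Matrix and synthetic genes, with 3 peaks and 24 PBS against 25 vasostatin-2 fragments, had -0.34 (-1.21 to 0.53).

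The share of genes with a member also varied by chromosome. It was 10.9% on chromosome 19, 10.2% on chromosome 11 and 9.29% on chromosome 10, against 3.995% on chromosome 14 and 3.42% on the X chromosome, and 0 of 256 genes on the Y.

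Most shared gene-end peaks lay at CpG-rich promoters. A window was called CpG-rich at an observed-to-expected CpG ratio above 0.6 and a GC content above 50%. Of 953 windows with a listed start within 1 kb of the summit 815 were CpG-rich (85.5%, 83.1 to 87.6), against 45.5% of 17492 protein-coding genes with a window. PBS-only gene-end peaks had 82.7% and vasostatin-2-only ones 79.6%. Seen by gene, 12.4% (11.7 to 13.2) of the 7960 genes with a CpG-rich window had a member, and 2.35% (2.06 to 2.67) of the other 9532. Beside that 12.4%, the lists gave 25.8% (16.6 to 37.9) of 62 CpG-rich chaperone genes and 22.2% (13.7 to 33.9) of 63 translation genes. They also gave 4 of 9 AP-1 and immediate early genes (44.4%, 18.9 to 73.3) and 4 of 11 autophagy genes (36.4%, 15.2 to 64.6). For vesicle traffic it was 24 of 128 genes (18.75%, 12.9 to 26.4). These intervals lay above the 12.4%. The intervals held it for 17.98% (11.4 to 27.2) of 89 splicing genes, 4 of 50 cytosolic ribosomal genes (3.16 to 18.8%) and 4 of 15 clock genes (26.7%, 10.9 to 51.95). Of the genes with a window, 2 of 86 keratin genes and 1 of 1265 receptors of smell were CpG-rich. The interval of the whole keratin list (0.164 to 5.06%) held the 2.35% of genes with other windows. The upper limit for the receptors (0.262%) lay below it.

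The letters of the REV-ERB site were not more frequent in member windows than in other promoters. All motifs were searched on both strands, and a match is a description of the letters only. The half-site AGGTCA was in 8.81% of 953 member windows (7.18 to 10.8) and in 14.5% of all 17492 windows, and within CpG-rich windows in 8.96% and 9.18%. The monomer motif, which contains the half-site in its form ANTAGGTCA and not in its form ANTGGGTCA, was in 2 member windows (0.210%, 0.0576 to 0.762) and in 1.13% of all, and within CpG-rich windows in 0.245% (0.0673 to 0.890) and 0.653%. Among windows of PBS-only gene-end peaks it was in 12 of 1145 (1.05%, 0.601 to 1.82), and in 1.06% (0.575 to 1.93) of the CpG-rich ones. Both intervals overlapped those of member windows. The strict RevDR2, 2 copies of AGGTCA with 2 free bases between them, was in no member window and in none of all windows. The E-box CACGTG was in 9.34% of member windows and 7.91% of all, or 10.4% and 11.7% of the CpG-rich ones. These windows reach at most 250 bp before the start, and no match says only that the letters are not in them.

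The letters CCAAT and GGGCGG were in a larger share of member windows than of CpG-rich promoters at large. CCAAT, the letters NF-Y binds, was in 48.3% of 815 CpG-rich member windows (44.9 to 51.8), in 41.3% (38.2 to 44.5) of the 947 CpG-rich PBS-only ones and in 37.3% (36.3 to 38.4) of all 7960. GGGCGG, the letters of Sp and Kruppel-like factors, was in 85.0% (82.4 to 87.3), 79.3% (76.6 to 81.8) and 77.0% (76.0 to 77.9). Over all windows CCAAT was in 49.1% of member windows and 39.2% of all, and where the window held the summit itself in 52.2%. Other motifs were at shares near the background within CpG-rich windows. The ETS letters CCGGAAGT were in 8.34% and 9.06%, the NRF1 letters GCGCATGC in 7.36% and 6.55%, the CRE TGACGTCA in 4.17% and 3.91%, the YY1 letters AAGATGGCG in 3.19% and 3.58%, and TATAAA in 4.29% and 4.79%. The ZBTB33 letters TCTCGCGA were in 3.68% and 3.02%, and the D-box TTATGTAA, in 2 member windows, in 0.245% and 0.352%.

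**Figure D5:**
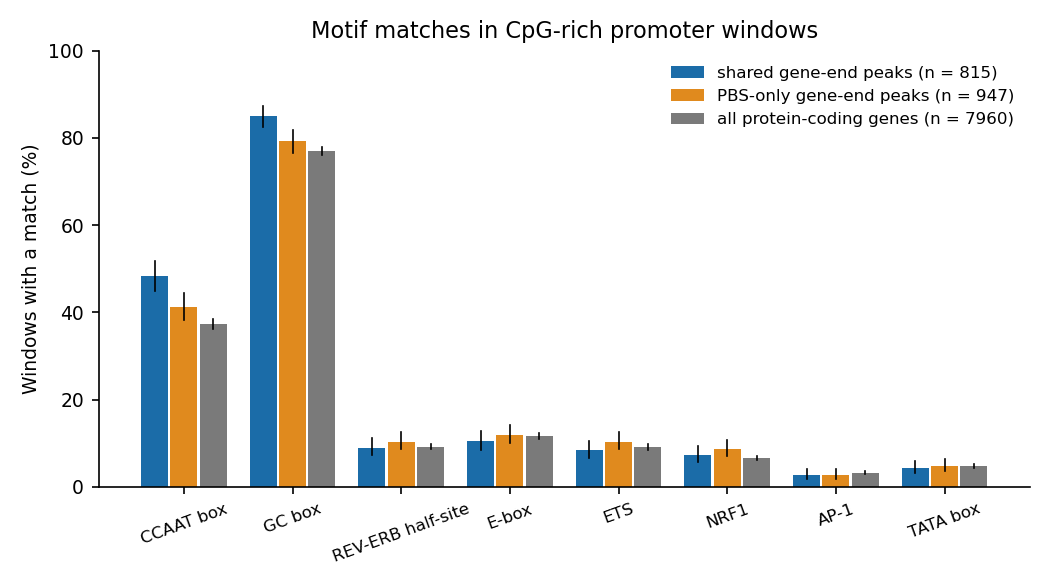
Share (%) of CpG-rich promoter windows with a motif match on either strand, for shared gene-end peaks (815 windows), PBS-only gene-end peaks (947) and all protein-coding genes (7960), with 95% Wilson intervals as lines. The CCAAT bars are 48.3, 41.3 and 37.3% and the GC box bars 85.0, 79.3 and 77.0%, and the REV-ERB half-site bars are 8.96, 10.3 and 9.18%.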

How the data were processed

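The deposited files are NR1D1 peak lists with mm10 coordinates, 1 for each NR1D1 library. The tools were, per the submitters' processing notes, Trimmomatic 0.39, BWA 0.7.17 and MACS2 2.2.7.1, listed without roles or settings. Per the deposited columns, the authors' fold enrichment is a ratio, summit over local background. The -log10 p-value of each summit and its adjusted form, the -log10 q-value, are deposited beside it. Whether the IgG libraries served as control for that background is not stated in the sources used here, and it bears on the meaning of the fold and of the depth inferred below. The deposited score was not used. Start, end and summit are the authors' coordinates, written here from 1.

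Whole fragments at each summit were recovered by solving for fold and -log10 p in the caller's Poisson formula, within 0.0005 of the deposited -log10 p at 100% of peaks in both lists. For 4 PBS peaks a second solution was near. The relative depth of 1.32 came from the floor and the steps of the recovered background, with a local window of 10000 bp assumed. The floor alone gave 1.23, and read totals were not used here. Genes came from RefSeq GRCm38.p6 (21887 protein-coding genes, 17492 with a promoter window). Recovery and overlap were checked on simulated peaks, the overlap against bedtools 2.31.1. Shares carry Wilson and counts Poisson intervals of 95%, peak ratios exact binomial ones, and medians order-statistic ones. They cover counting error only, since PCR copies and neighbouring genes are not independent. Calculations used Python 3.11.15, NumPy 2.4.6 and SciPy 1.17.1. With 1 library per treatment no test was made.

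The members, the 40 gene lists, the 15 motifs and the rules were chosen with earlier results of these data known. Genes were named by rule. These were the members with the most PBS fragments, every clock gene with a member, up to 3 genes per other list, the 6 lowest and 6 highest ratios, the edges of the thresholds, members with a REV-ERB monomer motif in the promoter window that holds the summit, and Nr1d1, Arntl, Chga, Acta2 and Myh11. Further genes, list members among them, are named as examples after their values were seen. Some genes that the rule selects are not reported here.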

Additional observations from a re-analysis of the deposited data

How the results depend on the processing

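Single libraries carry no replicate error. At this depth only 349 of 1175 members met the fragment limits set for a ratio. The number of shared gene-end peaks was between 836 and 1285 under 6 other settings and dropped to 467 when q had to be under 1e-05 in both lists, with 587 genes in place of 1452. The median log2 ratio of -1.06 was -0.995 with that q limit, -0.66 with no scaling for depth, -0.96 with depth from the background floor alone, -0.85 with no minimum of fragments and -1.16 with at least 60 fragments. It stayed below 0 under all 9 settings run. The share at starts was 98.0% with a 500 bp window. The GC box share was 85.0% in CpG-rich windows alone, an alternative chosen after seeing the data. At q under 1e-05 clock genes with a member numbered 6 of 24, and AP-1 and immediate early genes 4 of 18. With the 500 bp window the numbers were 7 and 5, so that the order of the shares of these lists turned under both settings. At that q limit the share of all genes was 2.68%. The counts of the 17 lists with 5 or more members moved by over 1.5 times in 23 of 68 comparisons. No paired analysis was possible because each treatment has 1 NR1D1 library.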
